A study of Mus musculus with 24 samples.

Results

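The 39 genes described here run or restrain the cell division cycle and copy the genome, and their transcripts were followed in isolated mouse retinal pigment epithelium (RPE), the pigmented layer behind the retina. They were chosen by name from the textbook machinery: 11 genes of S phase, 10 of the G1 decision (D and E cyclins, their kinases, Rb1 and E2f1), 4 inhibitors of cyclin-dependent kinases (CDKs) and 14 of G2 and mitosis. All 39 were found among the 31053 gene identifiers of the count files. The study set mutants, in which a floxed Ift20 gene was combined with the Dct-Cre driver, against controls, which carried the same Dct-Cre driver without a floxed Ift20 in their label. Ift20 encodes a protein that carries cargo for the building of cilia, and Dct-Cre acts in pigment cells. RPE of both genotypes was isolated at 3 ages, namely P11 (day 11 after birth), P29 (day 29) and 3 months, with 4 libraries in each of the 6 groups and 24 in all. The strain background was mixed, sex was not collected, no treatment was given, and the labels number biological replicates without saying whether each is 1 animal or a pool.

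A cell that divides passes from G1, where D cyclins with Cdk4 or Cdk6 and then E cyclins with Cdk2 release E2F transcription factors from Rb1, through DNA synthesis in S phase to mitosis, which Cdk1 drives with A and B cyclins. CDK inhibitors of the p21, p27 and p57 kind hold these kinases back. Most RPE cells of the mouse stop dividing around birth and are then kept for life, while D cyclins and CDK inhibitors stay in use in many cells that do not divide.

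Libraries came from a 3' end protocol that starts copying at the poly(A) tail and yields about 1 tag per transcript, so counts do not scale with transcript length. Gene counts ran from 1513440 to 2889946 per library, and levels are in CPM (counts of a gene per 1000000 counted in the library) after TMM, a normalisation that corrects for composition. The floor of 3 counts lay at 1.04 to 1.98 CPM and covers counting error only. RPE markers were abundant: the 12 markers listed for RPE summed to 20454 to 21446 CPM in P11 mutants, 21734 to 22713 CPM in P11 controls, 72191 to 75968 CPM in 3-month mutants and 73170.2 to 75996 CPM in 3-month controls. Transcripts of rods, blood and vessels were also present. Rod markers summed to 7038 to 7431 CPM in 3-month mutants against 3931 to 4279 CPM in 3-month controls, and endothelial markers to 218 to 258 CPM in P11 mutants against 479 to 518 CPM in P11 controls. Mitochondrial transcripts took 10.2% to 11.1% of counts in P11 mutants and 7.30% to 8.79% in P11 controls. Ift20 itself had a mean of 85.6 CPM in mutants against 103 CPM in controls at P11, 71.3 CPM in mutants against 108 CPM in controls at P29, and 111 CPM in mutants against 134 CPM in controls at 3 months. Its log2 fold change passed the test at P29 alone among the 3 ages, at -0.60 (SE 0.15, adjusted p = 0.0112). Which exons are floxed was not stated in the labels, and tags from the 3' end need not cover them, so this is no check of the labels.

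The members split by abundance. The D cyclins had group means of 104 CPM and above and the inhibitor Cdkn1b of 114 CPM and above, whereas most genes of S phase and mitosis lay far lower, many near the floor. Of the 39 members 30 passed the filter on low counts and were tested: 10 of 11 in S phase, 9 of 10 in G1, 4 of 4 inhibitors and 7 of 14 in G2 and mitosis. The 9 that did not pass were Rrm2, Ccne1, Ccnb1, Ccnb2, Aurka, Aurkb, Bub1, Birc5 and Ube2c, whose highest count in any library ran from 6 for Aurkb to 21 for Rrm2 (Ccnb2 reached 7 and Ccnb1 9). A gene was called where edgeR's quasi-likelihood test, fitted to 12303 genes in all 24 libraries, gave a Benjamini-Hochberg adjusted p under 0.05. Of the 30 tested members 11 were called in at least 1 of 9 comparisons: Ccnd1, Ccnd2, Ccnd3, Cdk6, Ccne2, Cdk2 and E2f1 of G1, Cdkn1a and Cdkn1c among the inhibitors, and Top2a and Cdk1 of G2 and mitosis. Of all 12303 genes 48% were called in at least 1 of the 9, a higher share than 11 of 30; this difference was not tested. None of the 10 tested S phase genes was called in any comparison. The 9 comparisons share libraries: those of neighbouring ages or of both genotypes use the same groups, so their calls are not independent of each other. In such bulk libraries, fewer cells of a type and less RNA per cell cannot be told apart.

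The promoters of the members that were called are shown where they carry a CCAAT box, the element bound by NF-Y that many promoters of S phase and mitosis share. Of the 39 members 30 have a window, 250 bases before to 50 after the annotated start, in RefSeq's promoter table of GRCm38.p6, and 7 of the 11 called members are among them. Ccnd1, Ccnd2, Ccne2, Cdkn1c, Ccna2, Mcm4, Gmnn, Rb1 and Aurkb are named only. The 4 windows printed here belong to Cdk1, Cdk2, Top2a and Ccnd3; of the 2 windows that Ccnd3 has in the table, the one with the box is shown. Capitals mark the box CCAAT. They also mark the cell cycle homology element in its forms TTTGAA, as in many mitotic promoters, or else TTCGAA. The last elements in capitals are the E2F sites TTTCCCGC, searched as written here, or else TTTGGCGC. Each was searched on both strands, so that a box on the other strand reads ATTGG.
Cdk1, chr10:69352863-69353162 (minus strand): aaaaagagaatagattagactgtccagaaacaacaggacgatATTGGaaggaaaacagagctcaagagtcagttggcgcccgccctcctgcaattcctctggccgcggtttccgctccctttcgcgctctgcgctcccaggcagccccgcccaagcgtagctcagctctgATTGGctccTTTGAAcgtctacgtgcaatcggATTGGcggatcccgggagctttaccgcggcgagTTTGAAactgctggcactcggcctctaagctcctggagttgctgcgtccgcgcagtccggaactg
Cdk2, chr10:128705002-128705301 (minus strand): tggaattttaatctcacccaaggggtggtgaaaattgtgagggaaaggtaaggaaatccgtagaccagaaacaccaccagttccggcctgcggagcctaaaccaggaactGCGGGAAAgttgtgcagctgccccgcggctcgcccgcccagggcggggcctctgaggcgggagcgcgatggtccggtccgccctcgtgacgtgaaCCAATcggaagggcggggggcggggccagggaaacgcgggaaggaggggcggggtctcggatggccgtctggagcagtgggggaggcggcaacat
Top2a, chr11:99024140-99024439 (minus strand): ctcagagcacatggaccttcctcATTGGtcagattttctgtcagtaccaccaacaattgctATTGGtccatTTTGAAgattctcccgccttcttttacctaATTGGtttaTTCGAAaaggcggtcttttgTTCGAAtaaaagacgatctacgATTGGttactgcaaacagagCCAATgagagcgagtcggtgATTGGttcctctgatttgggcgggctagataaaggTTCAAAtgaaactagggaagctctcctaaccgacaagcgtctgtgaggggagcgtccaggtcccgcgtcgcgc
Ccnd3, chr17:47593217-47593516 (plus strand): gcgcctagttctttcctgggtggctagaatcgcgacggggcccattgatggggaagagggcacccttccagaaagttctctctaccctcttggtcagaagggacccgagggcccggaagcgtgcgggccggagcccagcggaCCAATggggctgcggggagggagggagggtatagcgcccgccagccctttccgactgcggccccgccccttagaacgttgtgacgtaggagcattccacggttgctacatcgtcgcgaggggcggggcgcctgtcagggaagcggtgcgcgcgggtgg

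The Top2a window holds the most marked elements of the 4, with CCAAT boxes on both strands beside TTTGAA and TTCGAA, and Cdk1 pairs 3 CCAAT boxes with 2 TTTGAA elements. Cdk2 holds 1 CCAAT box and an E2F site, and the Ccnd3 window a single CCAAT box. Of 34 windows of the members 70.6% hold CCAAT, against 37.4% of all 32851 windows of the table. By genes with a window, it stands in 8 of 9 of S phase and 11 of 12 of G2 and mitosis. It stands in 2 of 3 inhibitors and in only 2 of 6 G1 genes, which are the Cdk2 and Ccnd3 printed here. TTTGAA stands in 29.4% of the member windows against 17.9% of all, and in 9 of the 12 G2 and mitosis genes with a window. TTCGAA, TTTCCCGC and TTTGGCGC each stand in 8.82% of the member windows, against 1.56%, 1.07% and 0.514% of all windows. The Sp1 element GGGCGG, not marked, stands in 82.4% against 35.7%. These are matches of letters, with no test and no measure of binding.

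D cyclins were the most abundant members at P11 and P29, and at 3 months Cdkn1b had a higher mean than Ccnd2. Each of the 3 genes had its own course. Ccnd1 rose at each step of age in both genotypes, Ccnd2 fell to its lowest level at 3 months, and Ccnd3 rose once, by P29. Mutants had less Ccnd1 and more Ccnd3 at P11 and more Ccnd2 at 3 months. D cyclins bind Cdk4 and Cdk6 and start the phosphorylation of Rb1.

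Ccnd1 (ENSMUSG00000070348, chromosome 7 from 144929931 to 144939925 on the minus strand, GRCm38) encodes cyclin D1. At P11 it had 225, 263, 214 and 214 CPM in the 4 mutant libraries, against 277, 287, 292 and 269.9 CPM in the 4 control libraries. At P29 the values were 458, 464, 453 and 447 CPM in mutants, against 528, 522, 479 and 528 CPM in controls. At 3 months they were 652, 599.9, 654 and 618 CPM in mutants, against 810.4, 739, 723 and 682 CPM in controls. At each of the 3 ages every mutant library lay under every control library. The share of all tested genes that separate in this way was not counted, here or for the genes below. At P11 the log2 fold change was -0.30 (SE 0.080, adjusted p = 0.00925) and Ccnd1 was called. For P29 the value was -0.17 (SE 0.076, adjusted p = 0.317) and for 3 months -0.23 (SE 0.075, adjusted p = 0.0961), neither of them called by edgeR. The P11 call did not hold with limma's voom (-0.30, adjusted p = 0.0685) or in a fit of the 8 P11 libraries alone (-0.31, adjusted p = 0.0636). Neither difference of the genotype effect between neighbouring ages was called: 0.12 (SE 0.11, adjusted p = 0.696) for P29 minus P11 and -0.053 (SE 0.11, adjusted p = 0.957) for 3 months minus P29.

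With age Ccnd1 rose in both genotypes. Mutants had 455 ± 7.14 CPM at P29 against 229 ± 23.2 CPM at P11 (SD, n = 4), a log2 fold change of 0.99 (SE 0.078, adjusted p = 2.56e-20), and controls had 514 ± 23.8 CPM against 282 ± 9.97 CPM, at 0.87 (SE 0.078, adjusted p = 2.76e-17). At 3 months mutants had 631 ± 26.6 CPM, at 0.47 (SE 0.076, adjusted p = 7.28e-07) against P29, and controls 739 ± 53.5 CPM, at 0.52 (SE 0.076, adjusted p = 3.46e-08). No later group overlapped the earlier one at either step.

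Ccnd2 (ENSMUSG00000000184, chromosome 6 from 127125162 to 127152193 on the minus strand) encodes cyclin D2. At P11 it had 326, 345, 363 and 381 CPM in mutants, against 355, 407, 384 and 454 CPM in controls. In P29 mutants it had 342, 329, 291 and 315 CPM, against 295, 316, 287 and 344 CPM in controls of that age. Mutants had 165, 149, 183 and 150.2 CPM at 3 months, against 98.04, 103, 136 and 77.6 CPM in controls. The genotypes overlapped at P11 and P29, and at 3 months every mutant library lay above every control library. The 3-month log2 fold change of 0.64 (SE 0.11, adjusted p = 5.32e-06) was called, whereas P11 had -0.18 (SE 0.098, adjusted p = 0.328) and P29 0.042 (SE 0.098, adjusted p = 0.934). The genotype effect at 3 months exceeded that at P29 by 0.60 on the log2 scale (SE 0.14, adjusted p = 0.0117). This difference was no longer called without control P29 replicate 4 (0.55, adjusted p = 0.0516), control 3-month replicate 4 (0.48, adjusted p = 0.0913) or mutant 3-month replicate 3 (0.54, adjusted p = 0.0626), while the 3-month call itself held with each library left out, at 0.53 to 0.80.

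Ccnd2 fell after P29 in both genotypes. Mutants had 162 ± 15.98 CPM at 3 months against 319 ± 21.7 CPM at P29 (SD, n = 4), a log2 fold change of -0.98 (SE 0.10, adjusted p = 7.85e-14). Controls had 104 ± 24.2 CPM against 310.4 ± 25.5 CPM, at -1.58 (SE 0.10, adjusted p = 1.26e-24). Between P29 and P11 the fall passed in controls, at -0.37 (SE 0.098, adjusted p = 0.00172), and mutants had -0.15 (SE 0.098, adjusted p = 0.264). The difference of this step between genotypes was not called. Beside the 3-month genotype difference, 11 of 12 rod markers were higher in mutants (summed values above). So were 4 of 7 tested cone markers (152 to 160.3 CPM in mutants against 66.7 to 92.1 CPM in controls). Inner retinal neuron markers were higher in 4 of 12 (179 to 194 CPM in mutants against 138 to 182 CPM in controls). Surface epithelium markers were higher in 2 of 4 tested (17.9 to 32.8 CPM in mutants against 4.06 to 13.7 CPM in controls). Erythrocyte markers were higher in 4 of 6 (2498 to 2664 CPM in mutants against 2081 to 2209.9 CPM in controls). Endothelial markers were higher in 2 of 11 (38.9 to 48.1 CPM in mutants against 18.6 to 37.9 CPM in controls). RPE markers were lower in 2 of 11 tested. The part of these markers in the Ccnd2 result was not tested.

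Ccnd3 (ENSMUSG00000034165, chromosome 17 from 47505051 to 47599691 on the plus strand) encodes cyclin D3. At P11 it had 159, 194, 218 and 230.2 CPM in mutants, against 144, 168, 151 and 156 CPM in controls. The P29 values were 336, 285, 281 and 250.02 CPM in mutants, against 237, 282, 214 and 291 CPM in controls. At 3 months it had 285, 319.8, 312 and 297 CPM in mutants, against 293, 295, 266.7 and 255 CPM in controls. The genotypes overlapped at all 3 ages, at P11 through the lowest mutant library. The P11 log2 fold change of 0.38 (SE 0.10, adjusted p = 0.0124) was called. For P29 it was 0.17 (SE 0.099, adjusted p = 0.568), and for 3 months 0.13 (SE 0.099, adjusted p = 0.742). The P11 call was lost without control replicate 1 (0.34, adjusted p = 0.0558), without the third mutant library (0.33, adjusted p = 0.0589) and without the fourth (0.30, adjusted p = 0.0924), with voom (0.34, adjusted p = 0.165) and with the P11 libraries alone (0.36, adjusted p = 0.0708). Ccnd3 rose at P29 against P11 in mutants, at 0.52 (SE 0.10, adjusted p = 1.21e-05), and in controls, at 0.73 (SE 0.10, adjusted p = 5.09e-09). The next step, 3 months against P29, gave 0.076 (SE 0.099, adjusted p = 0.731) in mutants and 0.12 (SE 0.099, adjusted p = 0.54) in controls.

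**Figure D1:**
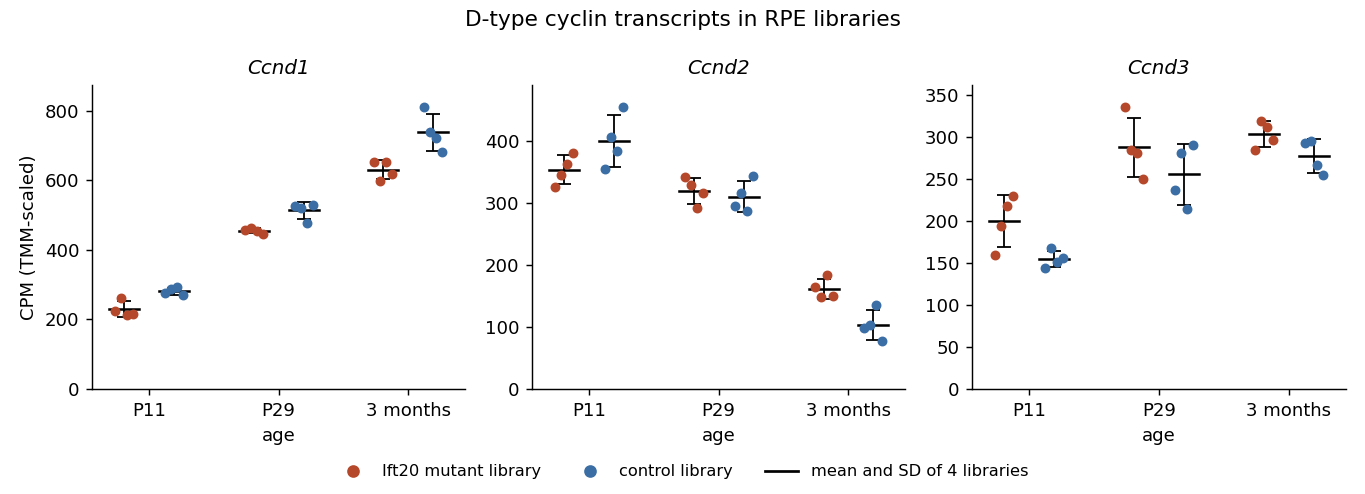
CPM (TMM-scaled, linear axis from 0) of the 3 D cyclin genes by age, 1 point per library, with mutant libraries left of control libraries and bars for the mean and SD of 4. Ccnd1 climbs with age and every mutant point lies under the control points of its age, while Ccnd2 has its lowest points at 3 months, where mutants average 162 CPM and controls 104 CPM.

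As a share of all D cyclin tags, Ccnd2 made up a mean of 45.2% in mutants and 47.7% in controls at P11, 30.04% in mutants and 28.7% in controls at P29, and 14.7% in mutants and 9.24% in controls at 3 months. Ccnd1 took 29.3% in mutants and 33.7% in controls at P11, 42.9% in mutants and 47.7% in controls at P29, and 57.6% in mutants and 65.97% in controls at 3 months. The leading D cyclin was thus Ccnd2 at P11 and Ccnd1 from P29 on in both genotypes. The summed level of the 3 was 783 ± 50.5 CPM in mutants and 837 ± 45.6 CPM in controls at P11 (SD, n = 4), and 1096 ± 38.9 CPM in mutants and 1119.7 ± 77.8 CPM in controls at 3 months. These shares are descriptions without a test, and priming can differ between transcripts. Within 500 bases of their 3' ends Ccnd1 overlaps LTO1 and Ccnd3 overlaps Bysl on the other strand, and the use of strand in counting is not stated, so shared reads cannot be told apart. LTO1 had group means of 7.31 to 12.6 CPM and Bysl of 24.03 to 35.8 CPM, and neither was called in any of the 9 comparisons. Annotated last exons of Ccnd2 share bases with 9330179D12Rik and Gm43126 on the other strand, outside the last 500 bases of Ccnd2. The part of such reads was not tested.

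Downstream of the D cyclins in G1, 4 members were called with age and none with genotype. Cdk6 and Ccne2 fell by P29 in both genotypes, Cdk2 fell by P29 in controls and between P29 and 3 months in mutants, a difference that was not itself called, and E2f1 rose by P29 in controls. Cdk6 encodes a partner kinase of the D cyclins, Ccne2 cyclin E2, Cdk2 the kinase that cyclin E activates, and E2f1 a transcription factor that Rb1 holds back.

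Cdk6 had 29.97, 28.8, 31.3 and 33.7 CPM in mutants and 35.4, 24.7, 24.05 and 19.7 CPM in controls at P11. In P29 mutants it had 16.1, 9.45, 9.82 and 11.8 CPM, and 12.9, 9.16, 11.1 and 15.4 CPM in controls of that age. Mutants had 19.9, 23.5, 17.96 and 13.1 CPM at 3 months, and 19.8, 11.7, 19.2 and 17.8 CPM in controls. Every P29 library lay under every P11 library of its genotype. P29 against P11 gave -1.39 (SE 0.31, adjusted p = 0.000125) in mutants and -1.12 (SE 0.31, adjusted p = 0.00247) in controls. The values at 3 months against P29 were 0.66 (SE 0.31, adjusted p = 0.169) in mutants and 0.51 (SE 0.31, adjusted p = 0.35) in controls, not called. Cdk4, the other D cyclin partner, averaged 20.7, 16.3 and 14.2 CPM in mutants and 24.7, 16.9 and 16.5 CPM in controls over the 3 ages and was called nowhere; its 3' end overlaps that of Tspan31. Annotated last exons of Cdk6 share bases with Gm17590 on the other strand, outside the last 500 bases of Cdk6.

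Ccne2 was close to the floor after P11. It had 7.86, 1.31, 6.25 and 7.72 CPM in mutants and 3.68, 7.22, 8.86 and 19.1 CPM in controls at P11. The P29 values were 1.38, 0.788, 0 and 0.392 CPM in mutants, and 0, 1.20, 3.69 and 0 CPM in controls, which are 3, 2, 0 and 1 counts in mutants and 0, 3, 10 and 0 in controls. At 3 months the counts were 0, 7, 1 and 3 in mutants and 0, 3, 2 and 0 in controls. In each genotype the P11 and P29 groups overlapped through 1 library. P29 against P11 gave -3.09 (SE 1.03, adjusted p = 0.0137) in mutants and -2.89 (SE 0.95, adjusted p = 0.0121) in controls. After P11 no library exceeded 3.69 CPM, and Ccne2 passed the filter on low counts through its P11 libraries alone. Such a filter favours a fall from P11, so these calls are no independent support for one. In mutants the call was lost without P29 replicate 3 (-2.70, adjusted p = 0.0557). In controls it was lost without P11 replicate 4 (-2.32, adjusted p = 0.0844), P29 replicate 1 (-2.47, adjusted p = 0.0563) or P29 replicate 4 (-2.53, adjusted p = 0.0515), and without P29 replicate 3 the value was -4.39, adjusted p = 0.00295. Its 3' end overlaps that of Ints8.

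Cdk2 (ENSMUSG00000025358, chromosome 10 from 128697939 to 128705031 on the minus strand) had 28.01, 35.8, 26.8 and 19.5 CPM in mutants at P11, against 58.2, 35.5, 47.5 and 42.5 CPM in controls. At P29 it had 24.4, 34.3, 22.6 and 25.5 CPM in mutants and 21.1, 6.38, 34.7 and 19.8 CPM in controls. In 3-month mutants it had 14.1, 9.58, 16.2 and 12.2 CPM, and 14.3, 20.8, 24.4 and 13.3 CPM in controls of that age. At P11 the highest mutant library lay just above the lowest control library, and the log2 fold change of -0.75 (SE 0.28, adjusted p = 0.0959) was not called. In controls Cdk2 fell at P29 against P11, at -1.16 (SE 0.29, adjusted p = 0.000593), where mutants had -0.039 (SE 0.29, adjusted p = 0.939). In mutants it fell at 3 months against P29, at -1.04 (SE 0.30, adjusted p = 0.0105), where controls had -0.18 (SE 0.30, adjusted p = 0.802). The fall in mutants was lost without P29 replicate 2 (-0.89, adjusted p = 0.0597) or 3-month replicate 2 (-0.92, adjusted p = 0.057). The tests of the difference itself gave 1.13 (SE 0.40, adjusted p = 0.13) for the genotype effect at P29 minus P11 and -0.86 (SE 0.42, adjusted p = 0.525) for 3 months minus P29. Some annotated Cdk2 transcripts share bases with the melanosome gene Pmel on the other strand, outside the last 500 bases of Cdk2, and Pmel had -1.90 (SE 0.079) at P29 against P11 in mutants and -2.71 (SE 0.082) in controls; the part of such reads was not tested.

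E2f1 had 2.46, 3.93, 4.47 and 6.50 CPM in mutants and 2.01, 9.63, 0 and 0.531 CPM in controls at P11. Mutants had 11.99, 2.36, 11.1 and 14.9 CPM at P29, and 9.28, 12.8, 8.11 and 8.42 CPM in controls. The 3-month values were 12.5, 13.5, 9.88 and 10.5 CPM in mutants, and 9.68, 12.2, 3.05 and 5.66 CPM in controls. At P29 against P11 the controls gave 1.69 (SE 0.60, adjusted p = 0.0208), with groups that overlapped through P11 replicate 2, and mutants 1.19 (SE 0.56, adjusted p = 0.0974). The difference of this step between genotypes was not called for E2f1. The control call was lost without P11 replicate 1 (1.51, adjusted p = 0.0652), P11 replicate 3 (1.33, adjusted p = 0.0881), P11 replicate 4 (1.35, adjusted p = 0.087) or P29 replicate 2 (1.53, adjusted p = 0.0589) and in a fit of the compared libraries (1.66, adjusted p = 0.0887), and without P11 replicate 2 it was 3.18, adjusted p = 0.000148. Rb1, the pocket protein, had means between 17.4 CPM in 3-month mutants and 28.7 CPM in P11 mutants and was not called. Its 3' end overlaps Rcbtb2 on the other strand.

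Of the CDK inhibitors, Cdkn1c fell at both steps of age in both genotypes. Cdkn1a fell after P29 in both and rose before it in mutants. No inhibitor was called between genotypes. Cdkn1c encodes p57, an imprinted inhibitor, Cdkn1a encodes p21, a target of p53, Cdkn1b encodes p27, and Cdkn2c encodes p18, which binds Cdk4 and Cdk6.

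Cdkn1c (ENSMUSG00000037664, chromosome 7 from 143458339 to 143461050 on the minus strand) had 128, 112, 113 and 138 CPM in mutants and 94.6, 114, 89.9 and 121 CPM in controls at P11. At P29 it had 77.4, 88.6, 71.3 and 74.1 CPM in mutants and 73.2, 59.8, 61.6 and 64.9 CPM in controls. In 3-month mutants it had 33.2, 33.1, 43.1 and 48.9 CPM, and 28.6, 32.5, 45.8 and 29.9 CPM in controls of that age. In each genotype the 3 ages did not overlap. P29 against P11 gave -0.66 (SE 0.15, adjusted p = 0.000345) in mutants and -0.69 (SE 0.16, adjusted p = 0.000234) in controls, and 3 months against P29 gave -0.98 (SE 0.17, adjusted p = 2.27e-06) in mutants and -0.92 (SE 0.17, adjusted p = 1.25e-05) in controls. Mutants against controls differed by 0.23, 0.26 and 0.21 at the 3 ages, with overlapping groups and adjusted p of 0.439, 0.589 and 0.773.

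Cdkn1a had 27.02, 28.8, 32.2 and 41.4 CPM in mutants and 23.1, 32.5, 35.4 and 49.4 CPM in controls at P11. Mutants had 63.6, 50.4, 60.2 and 46.6 CPM at P29, and 40.3, 53.8, 58.3 and 47.6 CPM in controls. The 3-month values were 30.1, 27.01, 38.2 and 31.9 CPM in mutants, and 26.5, 20.8, 37.9 and 26.3 CPM in controls. All 4 P29 mutant libraries lay above the P11 and the 3-month mutant libraries. At P29 against P11 Cdkn1a rose in mutants, at 0.76 (SE 0.22, adjusted p = 0.00373), and had 0.52 (SE 0.22, adjusted p = 0.0597) in controls. At 3 months against P29 it fell in mutants, at -0.79 (SE 0.22, adjusted p = 0.00637), and in controls, at -0.84 (SE 0.22, adjusted p = 0.00428). The difference between genotypes of the first step was 0.24 (SE 0.31, adjusted p = 0.82).

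Cdkn1b was the most abundant inhibitor, with means of 131, 134 and 166 CPM in mutants and 114, 129 and 145 CPM in controls over the 3 ages. It was called in none of the 9 comparisons, and its largest difference was 0.31 (SE 0.13, adjusted p = 0.108) for 3-month against P29 mutants, whose groups did not overlap. Cdkn2c reached at most 8.11 CPM in a library. It was not called, with -2.28 (SE 1.04, adjusted p = 0.204) at P11 in mutants against controls.

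**Figure D2:**
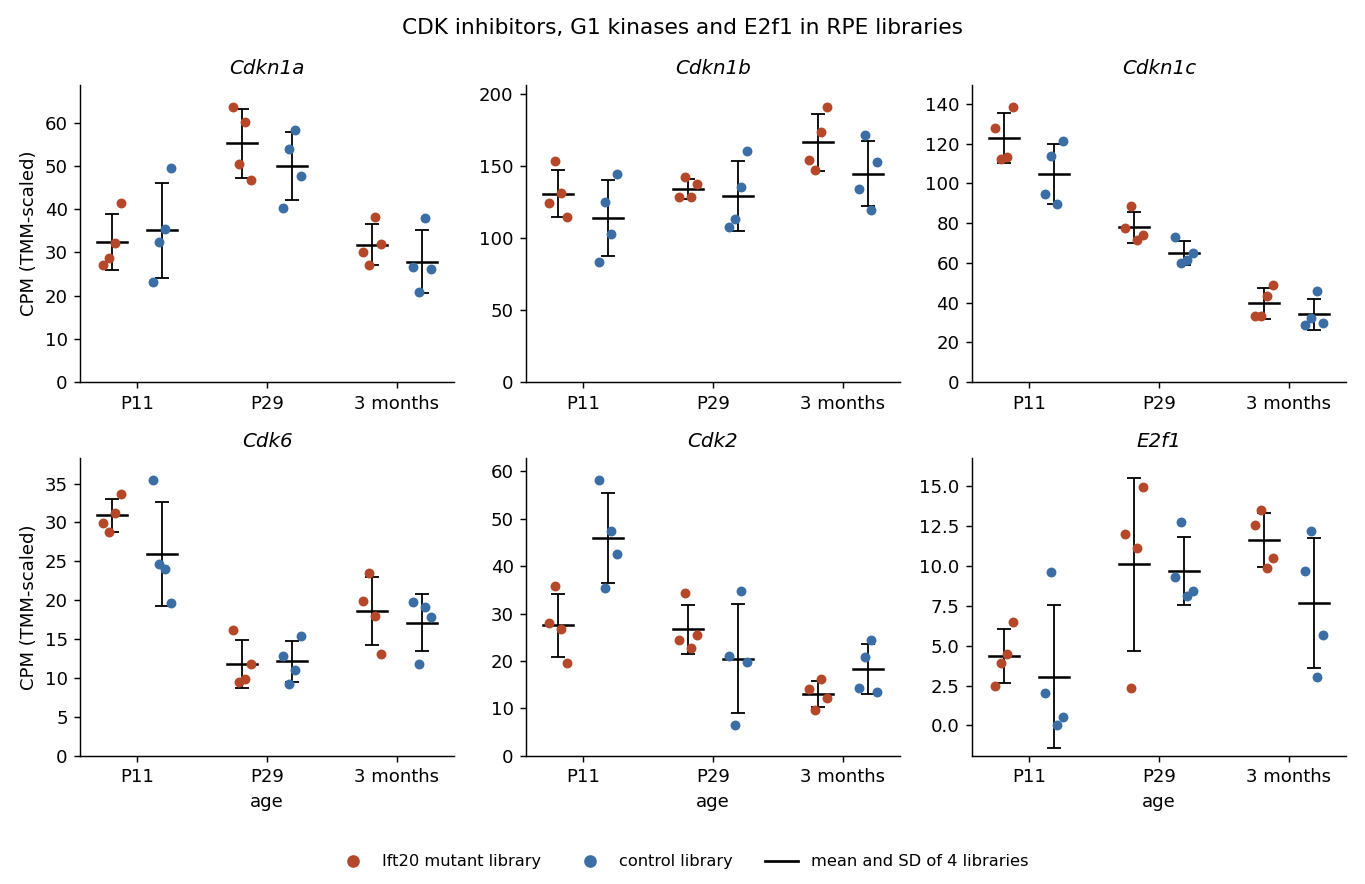
CPM (TMM-scaled, linear axis) of 3 CDK inhibitor genes, the kinases Cdk6 and Cdk2, and E2f1 by age, 1 point per library, with mutants left of controls and bars for the mean and SD of 4. Cdkn1c steps down with age in both genotypes, from the P11 to the 3-month points, Cdkn1a has its highest means at P29, and Cdkn1b was called at no step; an SD bar that reaches under 0 belongs to E2f1 in P11 controls.

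The S phase members were low, and none was called. Pcna, the sliding clamp of DNA polymerase, had means of 14.4, 15.9 and 20.3 CPM in mutants and 14.002, 17.5 and 21.1 CPM in controls. Rrm1, the large subunit of ribonucleotide reductase, had 19.3, 19.7 and 14.2 CPM in mutants and 22.1, 17.4 and 14.8 CPM in controls. The 6 genes Mcm2 to Mcm7 encode the replicative helicase; their highest library values ran from 6.98 CPM for Mcm5 to 25.9 CPM for Mcm7, whose 3' end overlaps that of Cops6. The smallest adjusted p of an S phase gene in the 9 comparisons belonged to Mcm3 in P29 controls against P11 controls, at -1.40 (SE 0.61, adjusted p = 0.071). Tyms, which makes thymidylate, reached 17.002 CPM and Gmnn, which stops a second round of licensing, 8.53 CPM in their highest libraries. Summed over the 11 genes, S phase tags were 85.2 ± 20.6 CPM in mutants and 109.7 ± 10.3 CPM in controls at P11 (SD, n = 4), 84.3 ± 9.82 CPM in mutants and 84.5 ± 18.99 CPM in controls at P29, and 78.2 ± 6.79 CPM in mutants and 80.6 ± 4.76 CPM in controls at 3 months.

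Rrm2, the small and cell cycle bound subunit of the reductase, did not pass the filter. Its counts at P11 were 0, 6, 8 and 1 in mutants, against 7, 21, 9 and 3 in controls. P29 libraries held 0, 2, 3 and 4 in mutants, against 3, 0, 0 and 0 in controls, and 3-month libraries 1, 2, 0 and 0 in mutants, against 0, 0, 0 and 2 in controls. In controls the P29 libraries together held 3 counts against 40 at P11, a depth-scaled ratio of 0.0606 with a 95% exact binomial interval of 0.0120 to 0.190, which covers counting error only. With no filter on low counts edgeR gave this comparison an adjusted p of 0.0299 over 19634 genes, and Rrm2 was the only one of the 9 untested members to pass there in any of the 9 comparisons.

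Of G2 and mitosis, Top2a fell by P29 in controls and Cdk1 rose by P29 in mutants. Top2a encodes the topoisomerase that untangles replicated chromosomes, and Cdk1 the kinase of mitotic entry. The other genes of the group were not called or, in 7 of the 14, lay under the filter and were not tested.

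Top2a (ENSMUSG00000020914, chromosome 11 from 98992943 to 99024189 on the minus strand), whose promoter is printed above, had 7.37, 13.5, 8.04 and 8.53 CPM in mutants at P11, against 15.4, 40.3, 13.9 and 21.8 CPM in controls. At P29 it had 5.99, 8.67, 5.55 and 5.49 CPM in mutants, against 3.93, 3.59, 2.58 and 4.95 CPM in controls. In 3-month mutants it had 0.391, 2.61, 4.49 and 0 CPM, and 10.1, 4.06, 0 and 2.42 CPM in controls of that age. Mutants lay under controls without overlap at P11 and above them without overlap at P29. Neither passed in edgeR, with P11 at -1.27 (SE 0.54, adjusted p = 0.155) and P29 at 0.78 (SE 0.59, adjusted p = 0.713). In a fit of the P11 libraries alone Top2a was called at P11, the only member that was. Controls fell at P29 against P11, at -2.59 (SE 0.58, adjusted p = 0.000162), where mutants had -0.54 (SE 0.56, adjusted p = 0.51), and the test of the difference gave 2.05 (SE 0.80, adjusted p = 0.186). At 3 months against P29 mutants had -1.78 (SE 0.64, adjusted p = 0.0534) and controls 0.15 (SE 0.61, adjusted p = 0.929).

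Cdk1 (ENSMUSG00000019942, chromosome 10 from 69335146 to 69352938 on the minus strand) rose at P29 against P11 in mutants. It had 3.93, 7.41, 11.6 and 16.2 CPM in mutants and 9.69, 9.63, 15.8 and 17.002 CPM in controls at P11. Mutants had 22.1, 15.8, 17.9 and 30.6 CPM at P29, and 17.1, 13.5, 19.9 and 32.2 CPM in controls. The 3-month values were 18.8, 20.04, 18.9 and 14.8 CPM in mutants, and 39.6, 26.6, 26.6 and 18.6 CPM in controls. P29 against P11 gave 1.12 (SE 0.34, adjusted p = 0.00665) in mutants, where the highest P11 library lay above the lowest P29 library, and 0.67 (SE 0.34, adjusted p = 0.128) in controls. The call in mutants was lost without P11 replicate 1 (0.88, adjusted p = 0.0538) or P29 replicate 4 (0.91, adjusted p = 0.0549). The difference of this step between genotypes was 0.45 (SE 0.48, adjusted p = 0.765). At 3 months against P29, mutants had -0.25 (SE 0.32, adjusted p = 0.728) and controls 0.44 (SE 0.32, adjusted p = 0.458). Mutants against controls at 3 months gave -0.62 (SE 0.32, adjusted p = 0.473).

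Among the mitotic genes that were tested and not called, Mki67, the proliferation marker Ki-67, had 7.37, 6.11, 2.23 and 3.25 CPM in mutants and 6.35, 3.61, 13.3 and 5.31 CPM in controls at P11. P29 mutants had 2.77, 2.36, 2.14 and 1.57 CPM and P29 controls 2.50, 0.398, 3.69 and 2.48 CPM. Among 3-month libraries the mutants had 0.782, 0, 0 and 1.75 CPM and the controls 0, 0, 5.23 and 0 CPM. The genotypes overlapped at each age, and 5 of the 8 libraries of 3 months had no Mki67 count. Cenpf, a kinetochore protein, averaged 8.15 CPM in mutants and 9.95 CPM in controls at P11, 2.32 CPM in mutants and 3.04 CPM in controls at P29, and 0.750 CPM in mutants and 0.631 CPM in controls at 3 months. For P29 against P11 it had -1.79 (SE 0.78, adjusted p = 0.0706) in mutants and -1.69 (SE 0.76, adjusted p = 0.0783) in controls. Ccna2 (cyclin A2), Plk1 (a mitotic kinase) and Cdc20 (an activator of the anaphase promoting complex) had at most 9.36, 13.3 and 13.03 CPM in any library and were not called. Ccna2 overlaps Exosc9 and Cdc20 overlaps Elovl1 at the 3' end on the other strand.

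The mitotic members under the filter were sparse. Aurkb, the kinase of the chromosomal passenger complex, had 9 counts in the 24 libraries together and Bub1, of the spindle checkpoint, 26. The B cyclins Ccnb1 and Ccnb2 had 40 and 48. The kinase Aurka had 69, the passenger protein Birc5 79 and the ubiquitin conjugase Ube2c 105, and cyclin E1 (Ccne1) of the G1 group 96. Summed over all 14 genes of G2 and mitosis, the level was 55.3 ± 7.98 CPM in mutants and 83.8 ± 8.57 CPM in controls at P11 (SD, n = 4), 49.01 ± 5.77 CPM in mutants and 39.6 ± 11.5 CPM in controls at P29, and 32.9 ± 5.03 CPM in mutants and 45.5 ± 12.5 CPM in controls at 3 months. The range was 46.2 to 65.4 CPM in P11 mutants and 71.5 to 91.4 CPM in P11 controls, without overlap, and no test was made of this sum. Top2a alone, not called between genotypes at P11, averaged 9.36 CPM of it in mutants and 22.8 CPM in controls. At P11 endothelial markers were lower in mutants in 7 of 11 genes, pericyte markers in 4 of 7 (164 to 210.2 CPM summed in mutants against 359 to 391 CPM in controls) and oligodendrocyte markers in 6 of 7 tested (104 to 133 CPM in mutants against 472 to 584 CPM in controls, with Mog, Olig1 and Olig2 at 0 counts in P11 mutants). Zeros of these genes were not particular to P11 mutants: Olig2 had 0 counts in every group after P11, and Mog and Olig1 in most of those groups. RPE markers were lower in mutants in 8 of 11 tested (summed values above), and rod markers higher in 5 of 12 (13759 to 14210.3 CPM in mutants against 11125 to 12280.0 CPM in controls). The lens list was lower in 3 of 8 (40.1 to 50.8 CPM in mutants against 87.9 to 128 CPM in controls). Surface epithelium markers were higher in 3 of 4 tested (7.15 to 23.6 CPM in mutants against 0.334 to 7.44 CPM in controls). Their part in the mitotic values and in the P11 differences of Ccnd1, Ccnd3 and the wider genes was not tested.

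**Figure D3:**
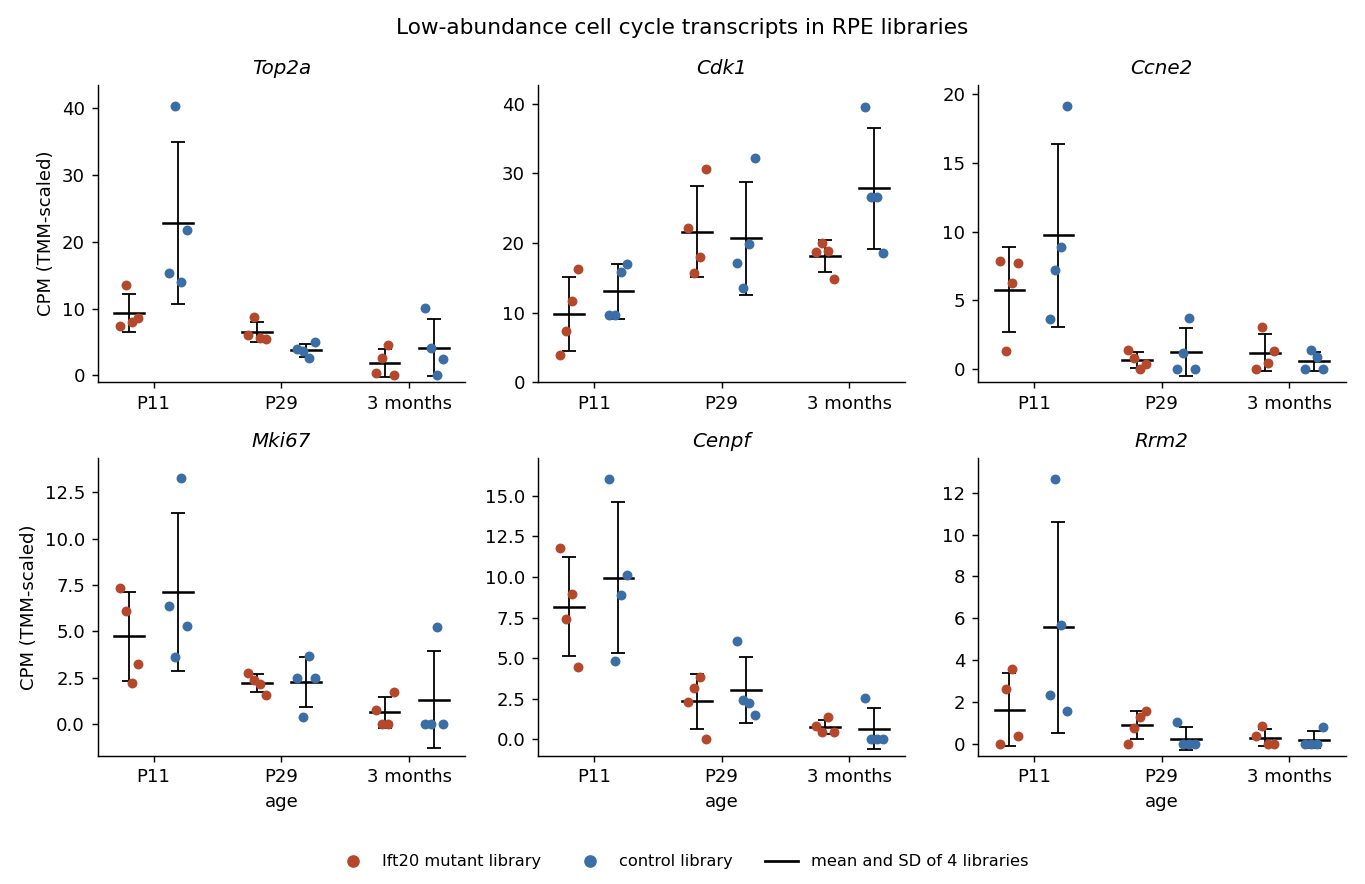
CPM (TMM-scaled, linear axis) of 6 low-abundance members by age, 1 point per library, with mutants left of controls and bars for the mean and SD of 4. Top2a, Ccne2, Mki67, Cenpf and Rrm2 have their highest points at P11 and Cdk1 does not, and many points after P11 lie at or near 0; SD bars that reach under 0 belong to groups with libraries at 0 or few counts.

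Set side by side, the genotype comparisons called few members. At P11, 2 of 30 tested members were called, Ccnd1 lower and Ccnd3 higher, beside 6.93% of all tested genes called (3.26% higher and 3.67% lower). At P29 none was called, beside 2.84% of all genes (1.63% higher and 1.21% lower). In edgeR 1 member, Ccnd1, had an unadjusted p under 0.05, and DESeq2 and voom called none either. At 3 months 1 was called, Ccnd2, beside 2.61% of all genes (2.13% higher and 0.48% lower), and DESeq2, voom and a fit of the 3-month libraries alone called Ccnd1 as well. The members' shares were thus near those of all genes. The median log2 fold change of the 30 members was -0.28 at P11, 0.060 at P29 and 0.12 at 3 months, beside -0.0016, -0.00073 and 0.032 over all genes. For the 7 tested genes of G2 and mitosis the medians were -0.60, 0.073 and -0.62, with none called at any age. The difference of the genotype effect between P29 and P11 was called for no member, beside 2.63% of all genes (1.45% positive and 1.18% negative), with 3 members at an unadjusted p under 0.05, and between 3 months and P29 for Ccnd2 alone among the members, beside 0.853% of all genes (0.61% positive and 0.244% negative).

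**Figure D4:**
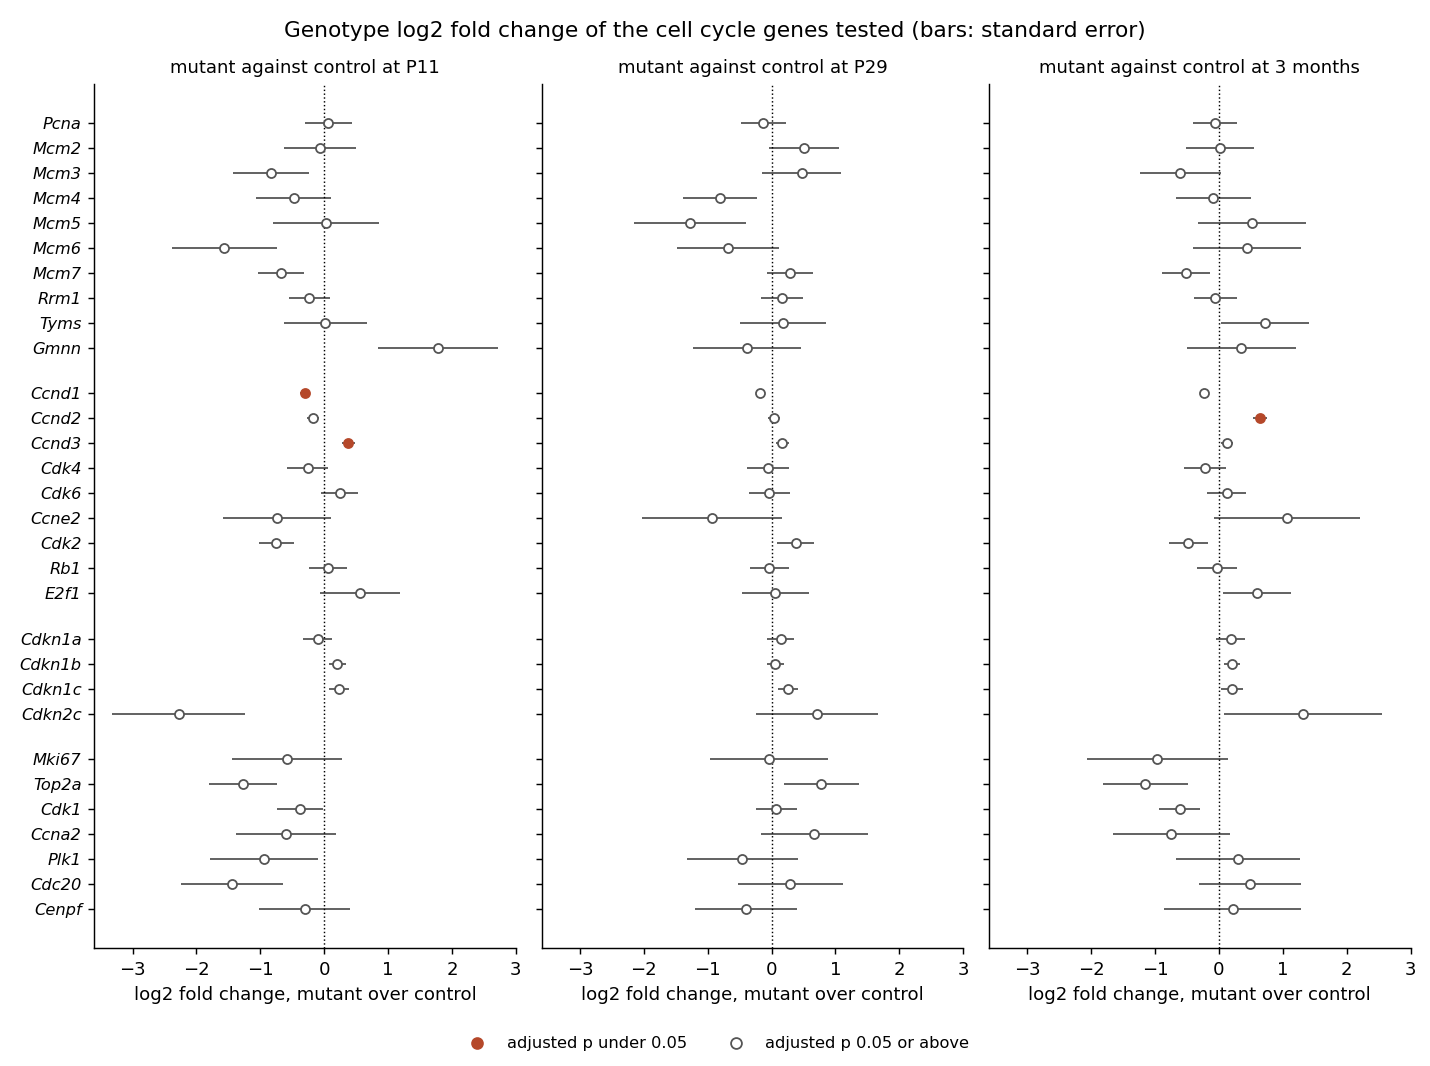
Log2 fold change of mutants over controls for the 30 tested members at P11, P29 and 3 months, ordered by role from S phase at the top to mitosis at the bottom, with bars for the standard error and filled points for adjusted p under 0.05. The filled points are Ccnd1 and Ccnd3 at P11 and Ccnd2 at 3 months; the D cyclins have the narrowest bars, and the S phase and mitosis genes wide ones.

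With age more members were called. At P29 against P11, 7 of 30 were called in mutants, beside 31.7% of all genes (16.4% higher and 15.2% lower), and 9 of 30 in controls, beside 32% (16.5% higher and 15.6% lower), shares no higher than the background. In mutants Ccnd1, Ccnd3, Cdkn1a and Cdk1 rose and Cdk6, Ccne2 and Cdkn1c fell, and in controls Ccnd1, Ccnd3 and E2f1 rose and Ccnd2, Cdk6, Ccne2, Cdk2, Cdkn1c and Top2a fell. At 3 months against P29, 5 of 30 were called in mutants, beside 12.7% of all genes (5.44% higher and 7.27% lower), and 4 of 30 in controls, beside 12% (3.49% higher and 8.5% lower), shares near the background. Ccnd1 rose there in both genotypes, Ccnd2, Cdkn1a and Cdkn1c fell in both, and Cdk2 fell in mutants. The members' median log2 fold change at P29 against P11 was -0.12 in mutants and -0.53 in controls, beside -0.011 and -0.022 over all genes, and at 3 months against P29 it was -0.18 and -0.21, beside -0.012 and -0.028. The filter on low counts can admit a sparse gene through its P11 libraries alone, as with Ccne2, which favours falls from P11 in these medians. Markers of several cell types moved over the same steps. At P29 against P11, all 11 tested RPE markers rose in mutants (46869.5 to 49325 CPM summed at P29 against 20454 to 21446 CPM at P11) and in controls (54436 to 55663 CPM at P29 against 21734 to 22713 CPM at P11). Endothelial markers fell in 2 of 11 in mutants (130.4 to 140.1 CPM at P29 against 218 to 258 CPM at P11) and in 11 of 11 in controls (72.8 to 115 CPM at P29 against 479 to 518 CPM at P11), and erythrocyte markers in 6 of 6 in both. Inner retinal neuron markers fell in 11 of 12 in both genotypes. Their sums were 390 to 436 CPM at P29 against 1130 to 1191 CPM at P11 in mutants. In controls they were 308 to 325 CPM at P29 against 899 to 999 CPM at P11. Rod markers fell in 5 and rose in 3 of 12 in mutants, and fell in 8 and rose in 3 in controls. Lens markers rose in 7 of 8 in mutants, with a median log2 fold change of 4.53 (632 to 722 CPM summed at P29 against 40.1 to 50.8 CPM at P11), and fell in 4 of 8 in controls (39.5 to 55.5 CPM at P29 against 87.9 to 128 CPM at P11). At 3 months against P29 lens markers fell in 7 of 8 in mutants, with a median of -6.85 (21.5 to 33.2 CPM at 3 months), and in 4 of 8 in controls (20.2 to 24.2 CPM at 3 months), and all 12 rod markers fell in both genotypes. RPE markers rose in 10 of 11 tested at this step in both genotypes. Endothelial markers fell in 9 of 11 in mutants and 6 of 11 in controls, and erythrocyte markers in 5 of 6 in both. Stromal fibroblast markers fell in 5 of 8 in mutants and 6 of 8 in controls. Inner retinal neuron markers fell in 6 of 12 in mutants and 7 of 12 in controls. None of these markers was called in the other direction at this step. The part of all these markers in the age differences was not tested.

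**Figure D5:**
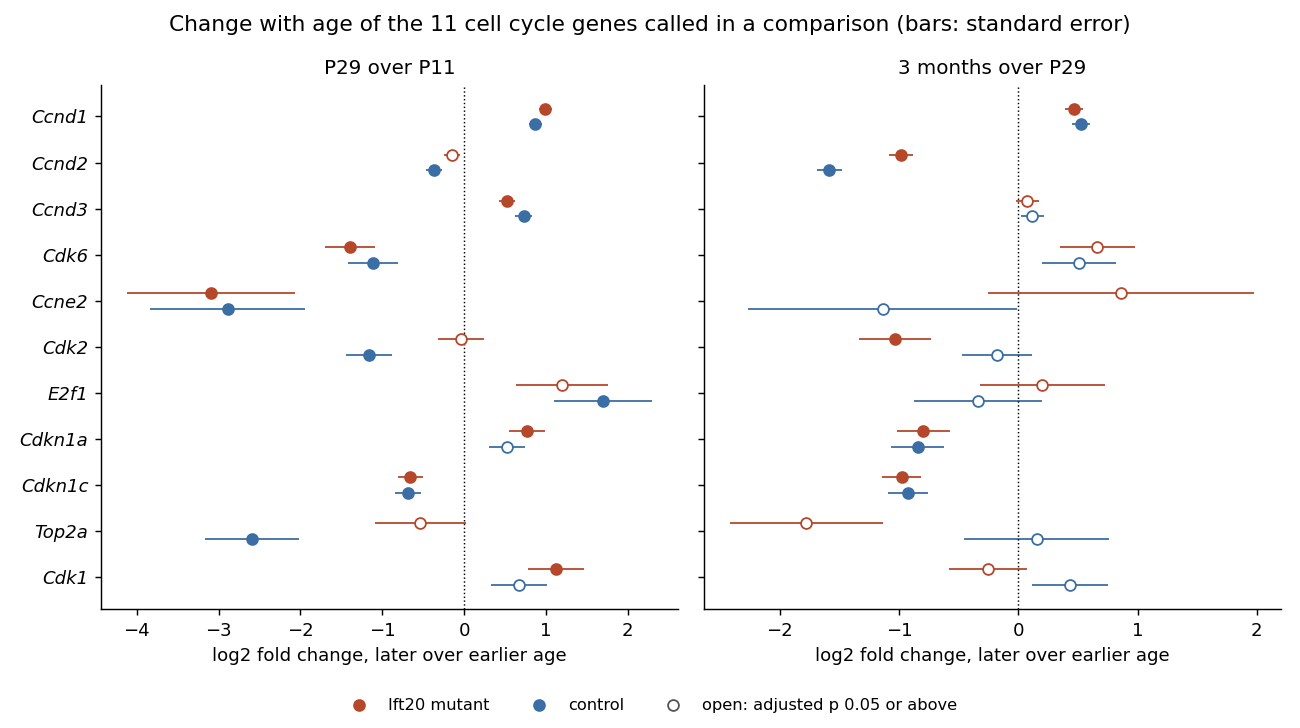
Log2 fold change of the later over the earlier age for the 11 called members, P29 over P11 on the left and 3 months over P29 on the right, with mutants above controls in each row, bars for the standard error and open points for adjusted p of 0.05 or above. Ccnd1 lies right of 0 and Cdkn1c left of 0 at both steps in both genotypes, whereas Cdk2 and Top2a at P29 over P11 are filled in controls and open in mutants, a difference that was not itself called.

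The rest of the machinery was described with 8 further lists, 138 genes of which 100 were tested, outside the 39 members. Between genotypes 5 of the 100 were called at P11, 2 at P29 and 1 at 3 months, beside 6.93%, 2.84% and 2.61% of all genes, which is more than in the lists at each age. Pttg1 (securin, which holds back the protease that parts sister chromatids) changed sides with age. It had 42.3, 50.6, 50.03 and 49.9 CPM in P11 mutants, against 24.4, 35.5, 17.7 and 29.2 CPM in P11 controls. At P29 it had 44.7, 35.5, 35.9 and 40.8 CPM in mutants, against 75.3, 88.9, 73.4 and 99.6 CPM in controls. In 3-month mutants it had 152, 154, 175 and 177 CPM, against 136, 145, 137 and 148 CPM in controls of that age. Mutants lay above controls at P11, below them at P29 and above them at 3 months, without overlap each time. At P29, lens markers were higher in mutants in 7 of 8 (632 to 722 CPM summed in mutants against 39.5 to 55.5 CPM in controls) and rod markers in 11 of 12 (15113 to 16302 CPM in mutants against 10533 to 11237 CPM in controls), and RPE markers were lower in 6 of 11 tested. Surface epithelium markers were higher in 3 of 4 tested (66.2 to 94.1 CPM in mutants against 15.1 to 26.4 CPM in controls). Their part in the Pttg1 and Btg2 values was not tested. The log2 fold changes of Pttg1 were 0.86 (SE 0.17, adjusted p = 0.000252), -1.10 (SE 0.15, adjusted p = 7.12e-08) and 0.22 (SE 0.14, adjusted p = 0.639), of which the first and the second were called. The genotype effect differed by -1.96 (SE 0.23, adjusted p = 3.32e-10) for P29 minus P11 and by 1.32 (SE 0.21, adjusted p = 7.84e-06) for 3 months minus P29. These 2 calls and both differences held with each library left out. Of the other wider genes the difference P29 minus P11 was also called for Gadd45b and Smc3, at 3.63 (SE 0.98, adjusted p = 0.0217) and -0.55 (SE 0.15, adjusted p = 0.0287). The Gadd45b difference was lost without control P11 replicate 1 or mutant P11 replicate 2 or 4 (largest adjusted p = 0.178). The Smc3 difference was lost without control P11 replicate 2, mutant P11 replicate 2, control P29 replicate 1 or 3 or mutant P29 replicate 1, 2 or 3 (largest adjusted p = 0.112).

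At P11 the cohesin gene Smc3 was higher in mutants, at 254, 269, 251 and 258 CPM in mutants against 204, 147, 192 and 188 CPM in controls, without overlap and at 0.49 (SE 0.11, adjusted p = 0.00097). Btg2, an antiproliferative target of p53, was lower in mutants at P29 without overlap, at 136 ± 8.10 CPM against 202 ± 6.57 CPM in controls (SD, n = 4) and -0.57 (SE 0.12, adjusted p = 0.00108). At P11 it had -0.56 (SE 0.14, adjusted p = 0.00694), a call lost without control replicate 1 or mutant replicate 2 (largest adjusted p = 0.102). Chek2, a checkpoint kinase, and Gadd45b, a stress gene, had 4 counts each over the P11 mutants, against 45 and 39 over the P11 controls, and both were called, Chek2 at -3.34 (SE 1.04, adjusted p = 0.032) and Gadd45b at -3.10 (SE 0.81, adjusted p = 0.00768). The Gadd45b call was lost without control replicate 1 (adjusted p = 0.155), and the Chek2 call without control replicate 1 or 4 or mutant replicate 2, 3 or 4 (largest adjusted p = 0.115). At 3 months Spc25, of the kinetochore, had 15, 11, 12 and 14 counts in mutants against 1, 1, 3 and 4 in controls, at 2.47 (SE 0.56, adjusted p = 0.00249).

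With age genes of these lists were called in both directions. At P29 against P11, 5 of the 100 rose and 12 fell in mutants, and 9 rose and 12 fell in controls, beside 31.7% of all genes called in mutants and 32% in controls. Btg2 rose in mutants, at 1.63 (SE 0.14, adjusted p = 8.71e-19), and in controls, at 1.64 (SE 0.13, adjusted p = 7.16e-20), and Gadd45g, another growth arrest gene, at 2.17 (SE 0.29, adjusted p = 8.60e-10) in mutants and 2.32 (SE 0.30, adjusted p = 2.17e-10) in controls. Anapc11, the RING subunit of the anaphase promoting complex, rose at 0.45 (SE 0.12) in mutants and 0.73 (SE 0.12) in controls. Of the E2F genes E2f2 fell at -2.22 (SE 0.53) in mutants and -2.23 (SE 0.58) in controls, and E2f3 at -1.36 (SE 0.31) in mutants and -1.04 (SE 0.31) in controls, the last lost without control P11 replicate 1 (adjusted p = 0.0730). E2f6 and the E2F partner gene Tfdp2 rose in controls, at 1.15 (SE 0.28, adjusted p = 0.000556) and 0.93 (SE 0.18, adjusted p = 1.78e-05), and had 0.38 (SE 0.27, adjusted p = 0.312) and 0.17 (SE 0.18, adjusted p = 0.531) in mutants. The difference of this step between genotypes was called for neither E2f6 nor Tfdp2. Pttg1 rose in controls, at 1.66 (SE 0.17, adjusted p = 5.57e-15), and was not called in mutants at this step. Cenpa, the centromeric histone, fell in controls, at -3.81 (SE 0.95, adjusted p = 0.000806), with 3, 0, 0 and 6 counts at P29 against 23, 29, 18 and 37 at P11. Cenpa was not called in mutants, and its difference between genotypes was not called either. The DNA ligase gene Lig1 fell at -0.71 (SE 0.26) in mutants and -1.04 (SE 0.26) in controls. Rpa1, of the same list of replication fork and nucleotide supply, rose at 0.76 (SE 0.15, adjusted p = 2.59e-05) in mutants. In controls Rpa1 rose at 0.46 (SE 0.15, adjusted p = 0.0133). Of the 15 tested genes of that list 1 rose and 2 fell in mutants, and 2 rose and 1 fell in controls. The Lig1 call in mutants was lost without P11 replicate 1, 2 or 4 or P29 replicate 3 (largest adjusted p = 0.150). The condensin gene Smc4 fell in mutants, at -0.98 (SE 0.22), and in controls, at -0.74 (SE 0.22). Smc3 fell in mutants, at -0.74 (SE 0.11, adjusted p = 1.47e-08), and was not called in controls. At 3 months against P29, 3 rose and 4 fell in mutants, and 1 rose and 3 fell in controls, beside 12.7% of all genes called in mutants and 12% in controls. The shares called in the lists were thus under those of all genes at both steps. In mutants Pttg1 rose to 165 ± 13.2 CPM at 3 months against 39.2 ± 4.40 CPM at P29 (SD, n = 4), a log2 fold change of 2.07 (SE 0.15, adjusted p = 1.86e-21). In controls it rose to 142 ± 5.65 CPM at 3 months against 84.3 ± 12.3 CPM at P29, with 0.75 (SE 0.14, adjusted p = 3.08e-05). Spc25 fell in controls at this step, at -2.89 (SE 0.55, adjusted p = 2.65e-05). It was not called in mutants, and the difference between genotypes was not called.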

How the data were processed

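The deposited files hold whole-number read counts per gene, 1 file per library and 31053 identifiers in each. Reads were aligned with STAR to mm10, per the submitters' processing notes (the counter, the annotation and the use of strand: not given in the sources used here). In each library 5 entries that name no gene were left out of library sizes. Of all reads a file lists, 18.6% to 27.5% fell in no gene and 31.0% to 37.2% aligned to several places. Symbols, positions and 3' end overlaps came from GENCODE M21 (GRCm38), which named 30934 of the identifiers.

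Genes were kept by edgeR's filterByExpr, scaled by TMM and fitted with the quasi-likelihood test of edgeR 4.0.16 in R 4.3.3, in 1 model with 6 group means over 24 libraries. P-values were adjusted by Benjamini-Hochberg over 12303 genes. The SE of an edgeR log2 fold change, in text and figures, is its absolute value divided by the square root of the test's F statistic. It was not estimated separately by the model. Counts of libraries of 1 group differed by more than counting noise (chi-square over its degrees of freedom between 2.98 and 7.15 in 36 pairs). Separate animals are not stated, so the p-values cover the spread of these libraries alone, which may be technical. In a check for pairing by replicate number, 0 of 60 same-numbered pairs of libraries had a correlation of deviations over 0.1. A weak pairing need not reach that cut, so the check cannot exclude it. DESeq2 1.42.0, limma 3.58.1 (voom), other size factors and filters, a replicate block, the compared libraries alone and leaving out each library were tried as alternatives. The fit was tested on simulated data.

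The members and the lists were chosen with earlier results of these data known. All 39 members are accounted for, and those called in at least 1 comparison are given in every library. Of the wider lists the text names the genes called between genotypes and some of the leading ones with age, a restriction made after their values were seen.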

Additional observations from a re-analysis of the deposited data

Results flagged for a closer look

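In 4 control libraries at P29, Ccnd1 had 1 library apart from the others: replicate 3 had 479 CPM, against 522 to 528 CPM in the other 3. In P29 mutants Top2a had 1 high library, replicate 2 with 8.67 CPM, against 5.49 to 5.99 CPM in the other 3. Of 66 groups of 4 libraries looked at in this way these 2 were flagged, and chance flags about 1 in 20 groups. Ccnd2 was flagged because its genotype effect differed between ages, with 0.60 more on the log2 scale at 3 months than at P29 (edgeR, adjusted p = 0.0117); every 3-month mutant library lay above every 3-month control library, and the P29 groups overlapped.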

How the results depend on the processing

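Of the 29 called values of members in the 9 comparisons, 26 were called under each of the 7 alternatives that tested the gene, 22 with each library left out and 21 under both, and none turned its direction. At P11 voom called 0 members between genotypes and a fit of the compared libraries 1, Top2a, against 2. At 3 months DESeq2 called 2, voom 2 and the compared libraries 2 (Ccnd1 and Ccnd2), against 1. The causes were not tested. With 1 library left out the counts of called members ranged from 1 to 2 for mutants against controls at P11, 0 to 0 at P29 and 1 to 1 at 3 months. They ranged from 6 to 8 at P29 against P11 in mutants and 8 to 10 in controls, and from 4 to 6 at 3 months against P29 in mutants and 4 to 5 in controls. For the difference of genotype effects they ranged from 0 to 1 for P29 minus P11, where Cdk2 was called without control P29 replicate 3, and from 0 to 1 for 3 months minus P29. The wider lists gave 53 to 63 calls against 61. With the replicate block the members called were 2, 0 and 1 between genotypes at P11, P29 and 3 months, 7 in mutants and 9 in controls at P29 against P11, 5 in mutants and 4 in controls at 3 months against P29, and 0 and 1 for the 2 differences of genotype effects, and the wider lists gave 62 calls; 4 of 24 libraries correlated best with their own number. Over all genes voom called 563 at P11 between genotypes (294 higher) against 853. It called 168 for the difference 3 months minus P29 (125 higher) against 105. The filter of 5 CPM left Ccne2 untested. Depth limits the genes of S phase and mitosis, of which many had fewer than 3 counts in single libraries.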
